A study of Mus musculus with 12 samples.

Results

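The unfolded protein response of the endoplasmic reticulum (ER) was followed in mouse blastocysts through 10 genes: Hspa5, Hsp90b1, Pdia4, Sdf2l1, Dnajb9, Dnajc3, Herpud1, Edem1, Xbp1, and Atf6. They were picked by name out of the 34245 genes of the deposited expression table, and the difference of several of them between p38-MAPKi and control blastocysts was known when they were picked, so that difference is given here as a description without a test. All 10 had reads in every library and passed the limit on low values. The question behind the series was how blastocysts respond when p38 mitogen-activated protein kinase (p38-MAPK) is blocked during early blastocyst maturation.

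The blastocysts came from F1 hybrid (C57Bl6 x CBA/W) parents and were grown in KSOM+AA, a culture medium with added amino acids, from the 2-cell stage. At E3.5 (embryonic day 3.5), pools of 30 embryos were moved to medium that held the solvent DMSO (control) or the p38-MAPK inhibitor SB220025 at 20 µM (p38-MAPKi), and were collected after 4, 7, or 10 h. Times are given as hours after E3.5. Each of the 6 groups had 2 biological replicates, giving 12 libraries of poly(A) RNA. A library is a pool of whole blastocysts, so fewer cells of a type and less RNA per cell cannot be told apart, and the embryos of a pool give 1 value together.

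Proteins that enter the ER fold there with the help of chaperones and of enzymes that form disulfide bonds. When unfolded proteins accumulate, the membrane sensors IRE1, PERK, and ATF6 are activated. The active forms of ATF6 and XBP1 are transcription factors that raise the genes of the chaperones and of ER-associated degradation (ERAD), which takes misfolded proteins out of the ER, while PERK lowers translation and raises ATF4 and its target Ddit3 (CHOP). Hspa5 (BiP, GRP78) is the most widely used marker of the response, and the primitive endoderm (PrE) of the blastocyst is a tissue that secretes basement membrane proteins, which fold in the ER.

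The totals of the libraries lay between 11242313 and 24457312 reads. The first p38-MAPKi replicate of 7 h (replicate 1) was the shallowest and stood apart, with reads in 14409 genes against 16749 to 18050 in the other libraries and a correlation with its replicate of 0.954 across genes, against 0.978 to 0.984 for the other pairs. Markers of the blastocyst were present throughout. Cdx2 of the trophectoderm had 144 to 237 RPKM, Nanog of the epiblast 96.8 to 141 RPKM, and Gata6 of the early PrE 80.9 to 129 RPKM. The other PrE markers covered a wide range. Dab2 had 24.0 to 58.7 RPKM, Col4a1 12.9 to 24.6 RPKM, Pdgfra 4.36 to 10.3 RPKM, and Hnf4a 3.01 to 5.75 RPKM. Sox17 had 1.16 to 4.38 RPKM, Gata4 1.07 to 3.86 RPKM, and Lama1 0.70 to 2.62 RPKM. Sox7 had no read in 1 library, and Foxa2 had none in 10 libraries. Of 6 blood cell markers, 5 had no read in any of the 12 libraries, and Hba-a1 had none in 3 and at most 1.01 RPKM in the others.

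A known control element of such genes could be read in some of their promoters, which is shown first because the genes carrying it can then be followed through the results. The ER stress response element (ERSE), which is CCAAT and CCACG with 9 bases of any kind between them, and the shorter ERSE-II, which is ATTGG and CCACG with 1 base between them, are recognised by NF-Y together with ATF6 or XBP1. In the 300 bases from 250 before to 50 after the start of each RefSeq gene (GRCm38.p6), searched on both strands, ERSE occurred in 39 of 32851 promoters (0.119%) and ERSE-II in 12 (0.0365%). Of the 10 genes, 9 had a promoter in the table. ERSE was found in 3 of them, Hspa5, Hsp90b1, and Dnajc3, and ERSE-II in 1, Herpud1. Another motif, TGACGTGG, occurred in 222 promoters (0.676%) and in none of these 9. The sequences are written 5′ to 3′ on the strand of the gene, with the fixed letters of the element in capitals (read on the opposite strand in the first of Hsp90b1 and in Creld2):
Hspa5, chr2:34772020-34772048: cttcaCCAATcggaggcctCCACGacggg
Hsp90b1, chr10:86705528-86705556: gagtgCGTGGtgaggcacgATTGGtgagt
Hsp90b1, chr10:86705633-86705661: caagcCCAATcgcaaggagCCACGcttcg
Dnajc3, chr14:118937822-118937850: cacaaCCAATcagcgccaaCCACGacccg
Herpud1, chr8:94386372-94386392: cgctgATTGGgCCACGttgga
Creld2, chr15:88819515-88819543: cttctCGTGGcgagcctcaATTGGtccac
Pdia6, chr12:17266486-17266514: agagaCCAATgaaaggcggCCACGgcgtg

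Creld2 and Pdia6 are shown beside the 10 genes because they carry the element and passed the test at 10 h, so they were chosen by their values. Calr and Canx, also genes of ER folding, carry it too and did not pass. No element was found in the promoter of Dnajb9, which had the lowest log2 fold change of the 10 genes at 10 h. The element of Hspa5 spanned bases 65 to 47 before the start, that of Dnajc3 105 to 87, that of Herpud1 52 to 42, and the elements of Hsp90b1 107 to 89 and 212 to 194. These distances are from the RefSeq start, which lies 120 bases inside the annotated gene for Hspa5 and 65 bases inside it for Hsp90b1. The element of Hspa5 therefore lies inside its annotated gene, whereas both elements of Hsp90b1 lie before its annotated gene. Of 24 other genes of ER folding, 18 had a promoter in the table, and ERSE was present in Calr, Canx, Creld2, and Pdia6 and ERSE-II in Dnajb11. ERSE was also present in Derl3 and Syvn1, 2 of 15 ERAD promoters, and in none of the 12 promoters of the genes of ER entry, the 11 of the sensors, the 14 of the PERK arm, and the 12 of cytosolic chaperones. A match is a description of the letters and not a measured binding site.

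**Figure D1:**
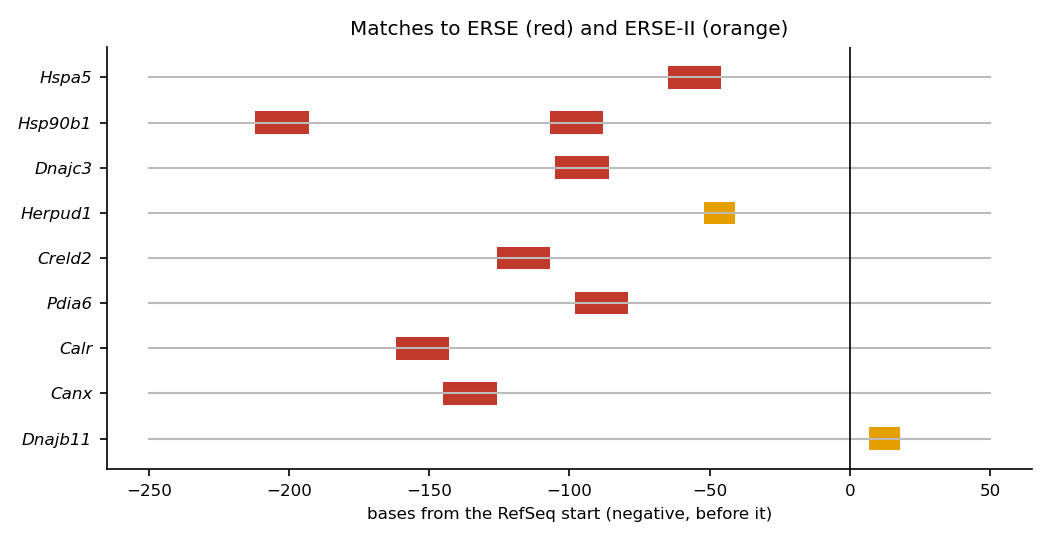
Position of ERSE (red) and ERSE-II (orange) in the promoters of 4 of the 10 genes and of 5 other ER folding genes, in bases from the RefSeq start (black line), with the 300-base window in grey. The matches in Hspa5, Hsp90b1, Dnajc3, and Herpud1 lie between 212 and 42 bases before the start, and that of Dnajb11 lies after it.

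The 10 genes covered a wide range of levels, compared here as RPKM (reads per kilobase of exon, corrected for library depth). Over the 12 libraries Hspa5 had a mean of 214 RPKM and Hsp90b1 of 184 RPKM, followed by Pdia4 (78.8), Sdf2l1 (31.5), Xbp1 (21.9), Edem1 (12.8), Dnajb9 (10.9), Dnajc3 (9.46), Herpud1 (4.64), and Atf6 (3.91 RPKM). Together Hspa5 and Hsp90b1 made up 63.6% to 71.8% of the summed RPKM of the 10 genes in a library. Hspa5 exceeded Hsp90b1 in 11 of 12 libraries and Xbp1 exceeded Edem1 in 11 of 12. The order of Edem1 over Dnajb9 and of Dnajb9 over Dnajc3 held in 8 of 12 libraries each, and that of Herpud1 over Atf6 in 7 of 12, so these neighbours did not differ beyond their spread. The other neighbours kept their order in all 12.

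**Figure D2:**
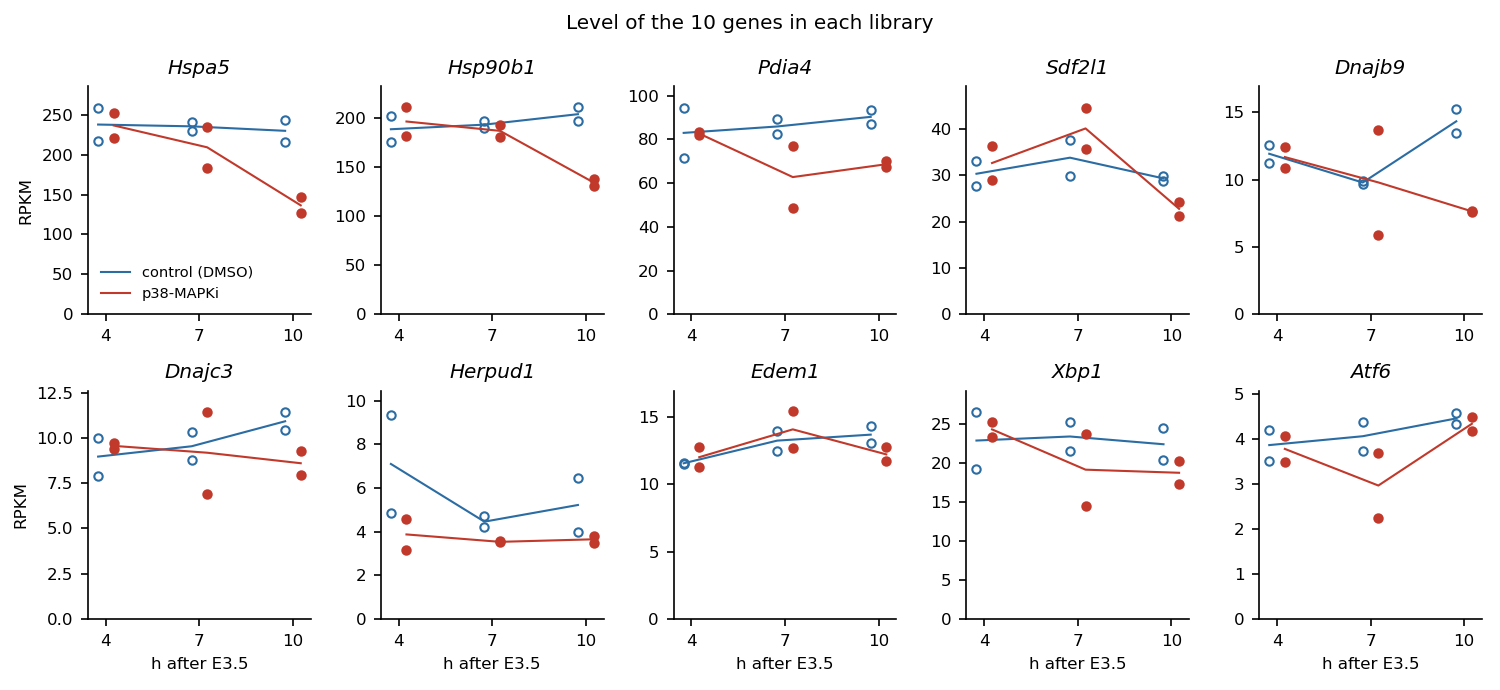
Level in RPKM (vertical axis from 0) of each of the 10 genes in each of the 12 libraries against hours after E3.5, with open blue points for control, filled red points for p38-MAPKi, and lines through the means of 2 replicates. The p38-MAPKi libraries of 10 h are the lowest points for Hspa5, Hsp90b1, and Sdf2l1, and the p38-MAPKi replicates of 7 h lie far apart for Dnajb9, Pdia4, and Dnajc3.

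Hspa5 (ENSMUSG00000026864.13; GRCm38, chromosome 2, 34771970 to 34777547, plus strand), the ER chaperone of the Hsp70 family that also holds the sensors inactive, had the highest mean of the 10 genes. Where values of both groups stand side by side, those of the control come first. At 4 h it had 217 and 258 RPKM in the control libraries and 221 and 252 RPKM with p38-MAPKi. It had 229.8 and 241 RPKM at 7 h in the control, and 184 and 235 RPKM with p38-MAPKi. By 10 h the control libraries had 216 and 244 RPKM and the p38-MAPKi libraries 126 and 147 RPKM. The groups overlapped at 4 h and 7 h, and at 10 h both p38-MAPKi libraries were below every other library of the series. The log2 fold change at that time point was -0.75 (standard error 0.0952), from 229.9 ± 20.1 to 137 ± 14.3 RPKM (SD, n = 2), or 1.69-fold lower.

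Hsp90b1 (ENSMUSG00000020048.13; chromosome 10, 86690209 to 86705509, minus strand) encodes GRP94, the Hsp90 of the ER. Its control libraries had 176 and 202 RPKM at 4 h, 190.0 and 197 RPKM at 7 h, and 197 and 211 RPKM at 10 h. Its p38-MAPKi libraries had 182 and 211 RPKM, 181 and 193 RPKM, and 131 and 138 RPKM at these time points. As for Hspa5, the p38-MAPKi libraries of 10 h were the lowest of all 12, and the earlier groups overlapped. The log2 fold change at 10 h was -0.60 (standard error 0.0661), from 204 ± 10.4 to 134 ± 4.46 RPKM (SD, n = 2). Hsp90b1 shares 415 exon bases with 1810014B01Rik on the opposite strand, and whether reads were counted by strand is not given in the sources used here.

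Pdia4 (ENSMUSG00000025823.9; chromosome 6, 47796141 to 47813430, minus strand) is a protein disulfide isomerase, which forms and rearranges disulfide bonds. It had 71.5 and 94.4 RPKM in the control and 81.9 and 83.4 RPKM with p38-MAPKi at 4 h, and 82.5 and 89.2 RPKM against 48.4 and 77.1 RPKM at 7 h. At 10 h it had 87.0 and 93.6 RPKM against 70.1 and 67.2 RPKM. Both p38-MAPKi libraries lay below both controls at the later time points, but at 7 h they lay far apart from each other. Sdf2l1 (ENSMUSG00000022769.9; chromosome 16, 17130138 to 17132383, minus strand), a component of ER chaperone complexes, had 27.7 and 33.0 RPKM against 29.0 and 36.3 RPKM at 4 h, 37.7 and 29.9 RPKM against 44.5 and 35.8 RPKM at 7 h, and 29.9 and 28.8 RPKM against 24.3 and 21.3 RPKM at 10 h. Its highest value of the series was thus in a p38-MAPKi library of 7 h and its lowest values were in those of 10 h. The log2 fold changes at 10 h were -0.40 (standard error 0.0673) for Pdia4 and -0.37 (0.0859) for Sdf2l1.

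Dnajb9 (ENSMUSG00000014905.4; chromosome 12, 44205559 to 44210326, minus strand) encodes ERdj4, a J-domain co-chaperone of BiP and a known target of XBP1. It had 11.3 and 12.6 RPKM in the control and 10.9 and 12.4 RPKM with p38-MAPKi at 4 h. It had 9.87 and 9.69 RPKM in the control at 7 h, inside the 5.90 and 13.7 RPKM of p38-MAPKi, the lower of which rests on 169 reads. By 10 h it had 15.2 and 13.4 RPKM in the control and 7.70 and 7.59 RPKM with p38-MAPKi. The highest value of the series was in a control library of 10 h, and the groups of that time point did not overlap. Dnajb9 had the lowest log2 fold change among the 10 genes at this time point, -0.90 (standard error 0.0959), from 14.3 ± 1.27 to 7.64 ± 0.0774 RPKM (SD, n = 2), or 1.87-fold lower. Dnajc3 (ENSMUSG00000022136.8; chromosome 14, 118937932 to 118981702, plus strand), the J-domain protein p58IPK, had 10.4 and 11.4 RPKM in the control and 7.95 and 9.26 RPKM with p38-MAPKi at 10 h, a log2 fold change of -0.35 (standard error 0.109). At the earlier time points its groups overlapped, between 6.92 and 11.4 RPKM.

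Herpud1 (ENSMUSG00000031770.16; chromosome 8, 94386438 to 94395377, plus strand), an organiser of the ERAD ubiquitin ligase complex, had control replicates that lay far apart at 4 h and 10 h. At 4 h it had 4.84 and 9.37 RPKM in the control and 3.17 and 4.58 RPKM with p38-MAPKi. At 7 h it had 4.20 and 4.72 RPKM against 3.51 and 3.56 RPKM. By 10 h it had 3.98 and 6.46 RPKM against 3.48 and 3.82 RPKM. It was the only one of the 10 genes whose p38-MAPKi libraries lay below both controls at all 3 time points, with log2 fold changes of -0.82, -0.33, and -0.48 and between 92 and 399 reads per library. Edem1 (ENSMUSG00000030104.9; chromosome 6, 108828641 to 108859356, plus strand), which directs misfolded glycoproteins to ERAD, stayed between 11.3 and 15.5 RPKM in all libraries and had 13.1 and 14.3 RPKM against 12.7 and 11.7 RPKM at 10 h, a log2 fold change of -0.16.

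Xbp1 and Atf6 encode the transcription factors of the response among the 10 genes. Xbp1 (ENSMUSG00000020484.18; chromosome 11, 5520659 to 5525893, plus strand), whose mRNA is activated when IRE1 splices it, had 19.3 and 26.6 RPKM against 23.4 and 25.4 RPKM at 4 h and 21.6 and 25.4 RPKM against 14.6 and 23.8 RPKM at 7 h. Its 10 h libraries had 20.4 and 24.5 RPKM against 17.3 and 20.3 RPKM, a log2 fold change of -0.26 (standard error 0.118) with groups that just fail to overlap. The values are sums over the gene and do not separate spliced from unspliced Xbp1. Atf6 (ENSMUSG00000026663.6; chromosome 1, 170704674 to 170867771, minus strand), a sensor that is cut to release its active part, was the only one of the 10 genes whose groups overlapped at 10 h, with 4.58 and 4.34 RPKM against 4.18 and 4.50 RPKM and a log2 fold change of -0.04.

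**Figure D3:**
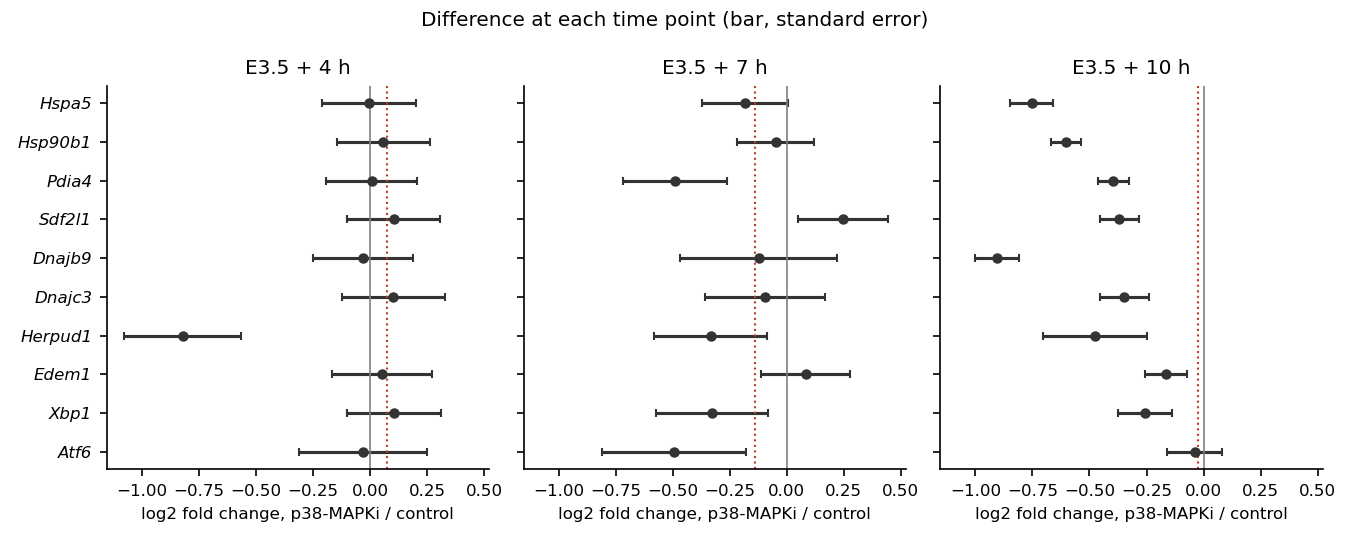
Log2 fold change of p38-MAPKi over control (horizontal axis) for the 10 genes at each time point, each point from 2 libraries against 2, with bars of 1 standard error from limma. The dotted red line marks the median of all genes tested and the grey line 0. At 10 h all 10 points lie left of 0, from -0.90 for Dnajb9 to -0.04 for Atf6.

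At 4 h the log2 fold changes of the 10 genes had a median near 0. The median log2 fold change was 0.03, against 0.07 over the 10781 genes tested, and 4 of 10 were below 0, where 40.0% of all genes were. The median was -0.064 with quantile normalization, and it was -0.12 without control replicate 1 and 0.14 without control replicate 2. None had an adjusted p under 0.05 in limma (1 had an unadjusted p under 0.05, Herpud1, which was lower, as 3.03% of all genes were), at a background of 0.909% of genes called, and both p38-MAPKi libraries lay below both controls for Herpud1 alone, against 13.7% of all genes. Nothing is read from these counts, since the choice of genes used them.

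At 7 h the median of the 10 genes lay close to that of all genes. It was -0.15 on the log2 scale, that of all 10940 genes tested was -0.14, and with each library centred on its median it was 0.044. None was called by limma (0 at an unadjusted p under 0.05), at a background of 2.13%, and the p38-MAPKi libraries lay below the controls for 3 of 10, Pdia4, Herpud1, and Atf6, against 38.7% of all genes. For 7 of the 10 genes the spread between replicates was largest in p38-MAPKi at this time point, and 4 genes had their lowest value of the series in the shallow replicate 1. The median log2 fold change was -0.0036 without p38-MAPKi replicate 1 and -0.35 without p38-MAPKi replicate 2, so it depended on which of these libraries was used. The summed RPKM of the 10 PrE markers was 138 to 143 with p38-MAPKi and 201 to 218 in the control at this time point, that of the 7 epiblast markers was 194 to 222 against 235 to 239, and that of the 7 trophectoderm markers overlapped (2062 to 2205 against 1808 to 2388). Of the 21 of these markers tested at 7 h, Dab2 was called by limma, as lower (log2 fold change -1.003, adjusted p = 0.0461). Both p38-MAPKi libraries lay below both controls for 13 of the 21, against 38.7% of all genes. The part of these markers in the values of the 10 genes was not tested.

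At 10 h all 10 genes had a log2 fold change below 0, where 54.3% of all genes had, and both p38-MAPKi libraries lay below both controls for 9 of 10 (all but Atf6), against 29.6% of the 10959 genes tested. Their median log2 fold change was -0.38, against -0.02 for all genes. Of the 10, 3 had an adjusted p under 0.05 in limma, Hspa5, Hsp90b1, and Dnajb9, all lower with p38-MAPKi, at a background of 0.803% of genes called (0.465% in this direction). These counts belong to the comparison by which the genes were chosen and are no test of them. Without control replicate 2, Dnajb9 alone was called, and none of the 10 was with no filter, without limma's trend, or in one fit to all 12 libraries. The median stayed between -0.43 and -0.31 with each of the 4 libraries left out in turn.

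Marker levels were recorded beside these values. At 10 h the summed RPKM of the PrE markers was 202 and 211 in the control and 204 and 217 with p38-MAPKi, that of the trophectoderm markers 2319 and 2552 against 2171 and 2458, and that of the epiblast markers 235 and 244 against 210 and 220. PrE and trophectoderm sums overlapped between the groups, whereas the epiblast sum was lower in both p38-MAPKi libraries. The sums are made up mostly of a few abundant genes. Of the 21 markers tested, 10 had both p38-MAPKi libraries below both controls, against 29.6% of all genes. Among these were Cdx2 (204 and 208 against 177 and 176 RPKM), Gata3 of the trophectoderm (111 and 115 against 94.7 and 89.4 RPKM), and Gata4 (3.86 and 2.34 against 1.84 and 1.85 RPKM), chosen after their values were seen. Both p38-MAPKi libraries lay above both controls for Gata6 (106 and 108 against 115 and 115 RPKM) and Hnf4a of the PrE (4.18 and 4.06 against 5.53 and 4.66 RPKM). None of the 21 was called by limma at this time point (6 had an unadjusted p under 0.05, all lower, against 11.6% of all genes). The part of these markers in the levels of the 10 genes was not tested.

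Change over time within a treatment was tested with limma, with p-values adjusted over all genes. These tests use the 4 h and 10 h libraries again and are therefore not separate evidence for the choice of genes. In control blastocysts none of the 10 genes passed between 4 h and 10 h (0 at an unadjusted p under 0.05), at a background of 0.471% of 10825 genes, and their median log2 fold change was 0.13 against 0.14 for all genes (-0.025 without control replicate 1 of 4 h). Hspa5 had a log2 fold change of -0.05 (standard error 0.115, adjusted p = 0.867 in limma), and Dnajb9 of 0.27 (standard error 0.134, adjusted p = 0.368 in limma). Both later control libraries were above both earlier ones for Dnajb9, Dnajc3, Edem1, and Atf6, against 42.3% of all genes.

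In p38-MAPKi blastocysts the same comparison gave a median log2 fold change of -0.32 for the 10 genes and 0.07 for all 10949 genes tested. None of the 10 passed, and no gene of the table did (a background of 0.0%, with 1331 genes higher and 1100 lower at an unadjusted p under 0.05 in limma). Of the 10, 5 were lower at an unadjusted p under 0.05, against 10.0% of all genes. The p38-MAPKi libraries of 4 h and 10 h also entered the comparisons by which the 10 genes were chosen. The counts and p-values of the 10 genes given here are therefore a description and no test of them. Hspa5 had the lowest log2 fold change, -0.79 (standard error 0.142, limma adjusted p = 0.105), followed by Dnajb9 with -0.61 and Hsp90b1 with -0.54 (both limma adjusted p = 0.134), Sdf2l1 with -0.52 (adjusted p = 0.159 in limma), and Xbp1 with -0.38 (adjusted p = 0.197 in limma). The later libraries lay below the earlier ones for 7 of 10 genes, against 25.6% of all genes. With p38-MAPKi replicate 1 of 4 h left out 6 of the 10 genes passed, where 43.4% of all genes did, and without replicate 2 of that group 2 of the 10 did, where 5.54% of all genes did. How the change over time differed between p38-MAPKi and control was not tested.

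Among other genes of ER folding, Manf, Creld2, and Pdia6 fell at 10 h. Of 22 tested, 3 passed in limma, all lower with p38-MAPKi, 12 had an unadjusted p under 0.05 and were lower, none of the 22 was higher at that level (11.6% of all genes were lower and 8.26% higher), and the median log2 fold change was -0.24 against -0.02 for all genes. Manf, a small ER protein that is released under stress, had 27.6 and 29.6 RPKM in the control and 15.7 and 18.0 RPKM with p38-MAPKi. Its log2 fold change was -0.77 (standard error 0.0907, limma adjusted p = 0.0398), or 1.70-fold lower. Creld2, an ER protein with disulfide isomerase activity, had 71.5 and 69.7 RPKM against 43.1 and 49.3 RPKM, a log2 fold change of -0.61 (standard error 0.0804, limma adjusted p = 0.0398). Pdia6, a disulfide isomerase that also acts on IRE1, had 84.3 and 90.3 RPKM against 60.9 and 61.6 RPKM, a log2 fold change of -0.51 (standard error 0.0646, limma adjusted p = 0.0398). In each of these the p38-MAPKi libraries of 10 h were the lowest of the series, as they were for Hspa5 and Hsp90b1. Without control replicate 2, or without p38-MAPKi replicate 1, none of these genes passed, nor with no filter, without limma's trend, or in one fit to all 12 libraries. The most abundant genes of this list, Calr and P4hb, did not pass (log2 fold changes of -0.47 and -0.22, limma adjusted p = 0.0811 and 0.159).

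**Figure D4:**
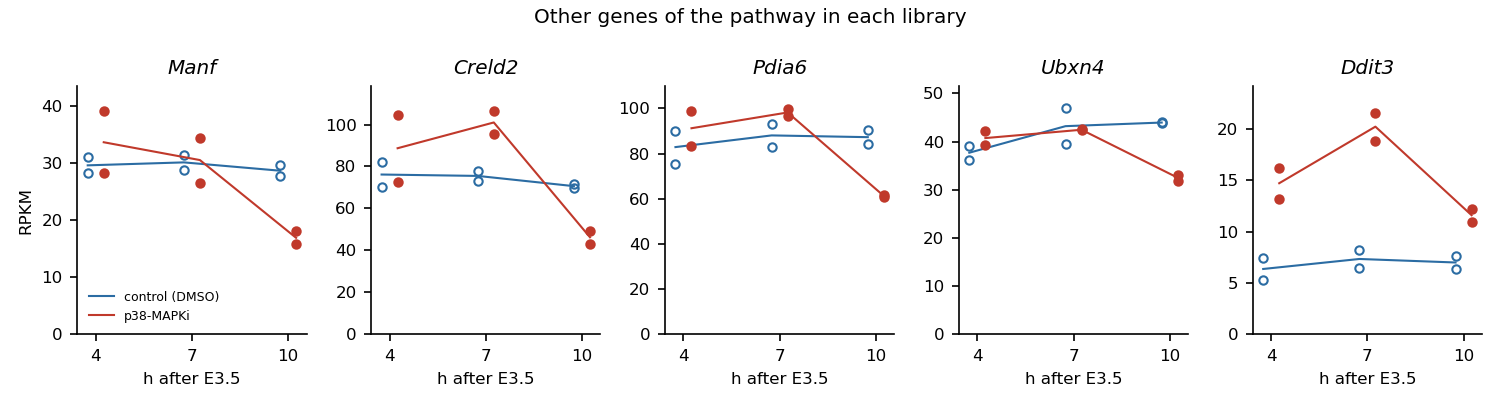
Level in RPKM (vertical axis from 0) of Manf, Creld2, Pdia6, Ubxn4, and Ddit3 in each of the 12 libraries against hours after E3.5, with open blue points for control, filled red points for p38-MAPKi, and lines through the means of 2 replicates. Manf, Creld2, Pdia6, and Ubxn4 have their lowest values in p38-MAPKi at 10 h, and Ddit3 is higher with p38-MAPKi at each time point.

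In the machinery around folding, Ubxn4 was the 1 gene that passed at 10 h. Of 19 other ERAD genes tested at 10 h, 1 passed in limma and was lower, Ubxn4, an ER membrane protein that recruits the VCP ATPase, with 43.9 and 44.0 RPKM in the control and 31.9 and 33.1 RPKM with p38-MAPKi (log2 fold change -0.44, standard error 0.0645, limma adjusted p = 0.0482). It was called in 6 of 14 alternatives. For Vcp itself the log2 fold change was -0.27 (limma adjusted p = 0.0910), and for Selenos it was -0.12 (limma adjusted p = 0.368). None of the 17 genes of ER entry (translocon, signal sequence receptor, and signal peptidase subunits) passed in limma. Of these 17, 6 had an unadjusted p under 0.05 in limma, all lower, against 11.6% of all genes. Ssr2 and Spcs1 had log2 fold changes of -0.08 and 0.04. The median log2 fold change was -0.15 for ERAD and -0.13 for ER entry. For the 13 sensors and their regulators it was 0.03, and none passed in limma. At an unadjusted p under 0.05 in limma, 1 of the 13 was lower and 1 higher, against 11.6% and 8.26% of all genes. Tmbim6 and Rtcb had log2 fold changes of -0.11 and -0.06.

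Genes listed here under the PERK arm passed in both directions. The activity of PERK itself was not measured. Ddit3, the stress-induced transcription factor CHOP, had 5.29 and 7.42 RPKM in the control and 13.2 and 16.2 RPKM with p38-MAPKi at 4 h, 8.18 and 6.47 RPKM against 21.6 and 18.9 RPKM at 7 h, and 6.38 and 7.60 RPKM against 12.2 and 10.98 RPKM at 10 h. It was higher in both p38-MAPKi libraries at each time point and passed the test at the first and the second, with log2 fold changes of 1.23 (standard error 0.225, limma adjusted p = 4.52e-05), 1.47 (standard error 0.204, limma adjusted p = 0.0397), and 0.73 (standard error 0.118, limma adjusted p = 0.0561). Atf4, which lies upstream of it, had log2 fold changes of -0.10, -0.06, and -0.39 and passed at none (limma adjusted p = 0.909, 0.819, and 0.0931). At 4 h Cebpb also rose (log2 fold change 1.01, limma adjusted p = 0.0158), and Asns, the asparagine synthetase and a known ATF4 target, fell (log2 fold change -0.91, limma adjusted p = 0.0123). At 10 h Psat1, an enzyme of serine synthesis, was the 1 gene of the 12 tested that passed. It fell from 75.2 ± 1.12 to 52.7 ± 0.693 RPKM (SD, n = 2; log2 fold change -0.51, limma adjusted p = 0.0398). At an unadjusted p under 0.05 in limma, 6 of the 12 were lower and 2 higher, against 11.6% and 8.26% of all genes. At 4 h limma took the spread of each gene from the trend over all genes. How far the replicates of a gene lay apart therefore did not enter its test. This holds for Ddit3, Cebpb, and Asns, and for Ube2g2 below. Of the alternatives run, Ddit3 was called in 8 of 14 at 4 h and in 10 of 14 at 7 h, Asns in 5 of 14 and Cebpb in 3 of 13 at 4 h, and Psat1 in 9 of 14 at 10 h.

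Beyond Ddit3, Cebpb, and Asns, 1 gene of the pathway lists passed at 4 h or 7 h, Ube2g2, a ubiquitin-conjugating enzyme of ERAD. It was higher with p38-MAPKi at 4 h, with 9.38 and 10.9 RPKM against 17.3 and 18.2 RPKM (log2 fold change 0.81, limma adjusted p = 0.0268), was called there in 4 of 14 alternatives, and had a log2 fold change of 0.06 at 10 h. None of the genes of ER folding passed at 4 h or 7 h in limma (at 4 h 1 was higher and 1 lower at an unadjusted p under 0.05, as 6.39% and 3.03% of all genes were, and at 7 h 2 were higher, as 10.7% of all genes were). Their median log2 fold changes were 0.18 and 0.08. In the tests over time none of the 71 other genes of ER folding, ERAD, ER entry, and the sensors passed in limma, with 10 higher and 1 lower in the control and 2 higher and 15 lower with p38-MAPKi at an unadjusted p under 0.05. Of all genes, 13.2% were higher and 2.05% lower at that level in the control, and 12.2% were higher and 10.0% lower with p38-MAPKi.

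Chaperones of the cytosol, which are not part of the ER response, were measured for comparison. Of 13 tested at 10 h none passed in limma. At an unadjusted p under 0.05 in limma, 8 of the 13 were lower and 1 higher, against 11.6% and 8.26% of all genes. Their median log2 fold change was -0.20, against -0.02 for all genes. The most abundant were Hsp90ab1, with 1933 ± 188 RPKM in the control and 1681 ± 63.3 RPKM with p38-MAPKi (SD, n = 2; log2 fold change -0.20, limma adjusted p = 0.262), and Hsp90aa1 (log2 fold change -0.29, limma adjusted p = 0.119). Whether the 10 genes, or the other genes of ER folding, differed from the cytosolic chaperones as groups was not tested.

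**Figure D5:**
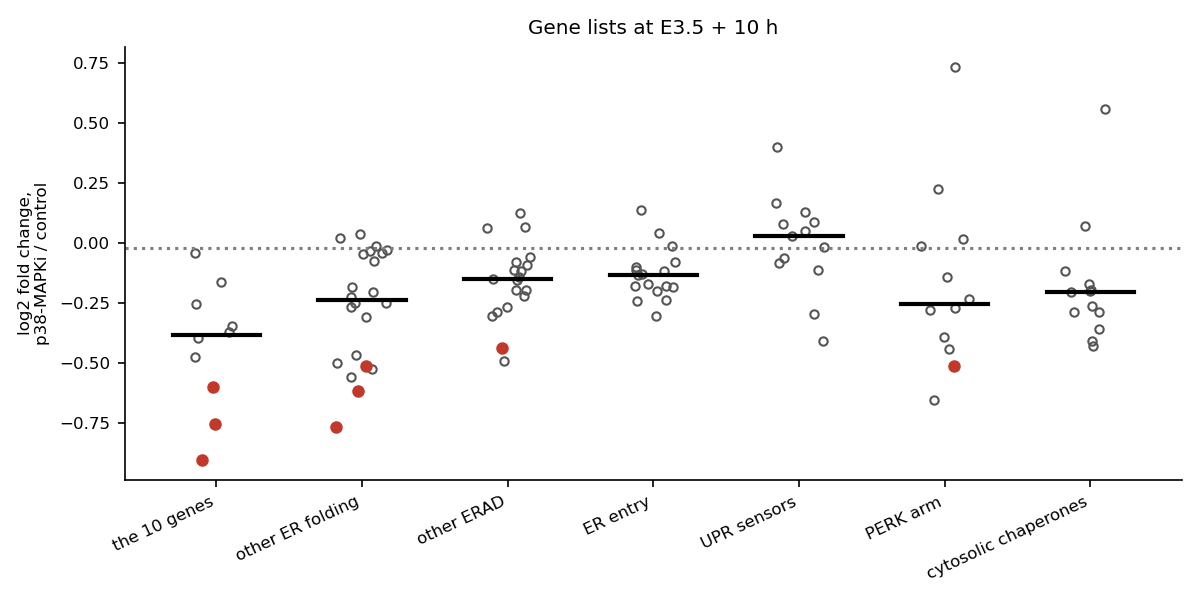
Log2 fold change of p38-MAPKi over control at 10 h (vertical axis) for the tested genes of 7 lists, with 1 point a gene, black bars at the median of a list, and a dotted line at the median of all genes tested, -0.02. Red points passed limma at an adjusted p under 0.05, all of them below 0. The medians run from -0.38 for the 10 genes to 0.03 for the sensors.

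The genes whose course over the 12 libraries was most like that of Hspa5 were sought among 10767 genes with a mean of at least 1 RPKM. The highest Pearson correlations of log2 RPKM were those of Ubfd1 (0.983), Hsp90b1 (0.956), Manf (0.941), Tex19.1 (0.932), Sqstm1 (0.920), Slc16a1 (0.914), Polr1c (0.904), Rfxap (0.904), Slc25a4 (0.901), and Calr (0.901). Hsp90b1, Manf, and Calr are thus the ER chaperones and folding factors among these 10. The 100 genes most like Hspa5 held 3 of the other ER folding genes and also 3 of the cytosolic chaperones. Of the other genes followed here, Xbp1 was at rank 244 and Dnajb9 at rank 260. Pdia4, Dnajc3, Sdf2l1, and Herpud1 were at ranks 500, 709, 773, and 846, while Edem1 and Atf6 were at ranks 6099 and 7974. The points share their libraries and depths, and each correlation includes the differences between groups.

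With each library taken as its deviation from the mean of its group, which leaves only the differences between replicates, the list was another one. Entpd2 (0.988), Crcp (0.973), Edem2 (0.972), Pitx1 (0.971), Adrm1 (0.968), Rfxap (0.968), Timmdc1 (0.964), Ptpn1 (0.963), Mfsd10 (0.961), and Csrnp2 (0.956) were most like Hspa5, and Rfxap was the gene on both lists. Xbp1 followed at rank 13 (0.950) and Dnajc3 at rank 74 (0.904), with Hsp90b1 at rank 203 (0.856). Lower correlations were those of Pdia4 (0.806), Herpud1 (0.704), and Dnajb9 (0.674). Those of Sdf2l1, Atf6, and Edem1 were -0.17, -0.45, and -0.66. With 2 replicates a group these deviations amount to 1 free value for each of the 6 groups.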

How the data were processed

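Levels of mRNA were measured in 12 libraries, each from 1 pool of blastocysts. The authors trimmed reads (Trim Galore! 0.4.1), mapped them to GRCm38 (HISAT2 2.0.5), and quantified genes in SeqMonk. They deposited log2 RPKM values, 1 column a library. The strand option, merging of isoforms, and treatment of reads mapping to several places are not given in the sources used here. No spike-in was used, so values are shares of a library. Genes with no read carry a stand-in of 0.9 read, which gave back whole reads (within 0.02) for 34244 genes. The annotated exon length served for 31975 of these and for 9 of the 10 genes followed here, and an adjusted length for the rest, Dnajc3 included.

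The deposited log2 values were fitted with limma 3.58.1 (lmFit, eBayes with trend; R 4.3.3), each comparison on its 4 libraries, using genes that reached 1 RPKM in 2 or more of them. Fold changes are differences of log2 RPKM without a pseudocount. P-values were adjusted by Benjamini-Hochberg over all genes tested, and a gene was called under 0.05. The procedure was also run on simulated data, drawn independently for each gene and library. Such data hold no library that stands apart, as replicate 1 of p38-MAPKi at 7 h did, so that case was not checked. The genes followed here and the other lists were chosen with earlier results of these data known. Of the other lists, genes called in a comparison were named (at most 5 a list and comparison), or the 2 most abundant where fewer than 2 were called. Promoters were read from RefSeq (GRCm38.p6), and locations are those of the GRCm38 annotation. Python 3.11.15 and pandas 2.3.3 were used for the rest. Replicates were separate pools. For its p-values limma combined the spread of each gene between 2 pools with the trend over all genes. At 4 h it used that trend alone. Alternatives were no filter, 10 RPKM, median centring, quantile normalization, a pseudocount of 1, limma without the trend, 1 fit to all 12 libraries, blocking by replicate number, removal of the trend on length, voom on recovered reads, and each library left out in turn.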

Additional observations from a re-analysis of the deposited data

Results flagged for a closer look

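The genes below passed the test at 10 h and had the opposite direction at another time point, with both p38-MAPKi libraries on one side of both controls each time. The difference between the time points was not tested. Creld2 had a log2 fold change of -0.61 at 10 h and of 0.42 at 7 h, where it had 77.9 and 73.1 RPKM in the control and 95.5 and 106 RPKM with p38-MAPKi (limma adjusted p = 0.148). Pdia6 had a log2 fold change of -0.51 at 10 h and of 0.16 at 7 h (limma adjusted p = 0.545). Ubxn4 had a log2 fold change of -0.44 at 10 h and of 0.11 at 4 h (limma adjusted p = 0.894).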

How the results depend on the processing

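Shares in brackets are those of all genes called under the same setting. The median log2 fold change of the 10 genes at 10 h kept its direction under every alternative run, between -0.43 and -0.31. Its 3 calls became 0 with no filter, with limma without the trend, and with one fit over 12 libraries (0.0%, 0.0821%, and 0.0%; 6, 6, and 3 of the 10 genes at an unadjusted p under 0.05), and lay between 1 and 3 with 1 library left out (0.383% to 0.976%). Dnajb9 was called in 11 of 14 alternatives, and Hspa5 and Hsp90b1 in 10 of 14 each. The 4 other ER genes called there became 0 under the same 3 settings (27, 19, and 10 at an unadjusted p under 0.05), 11 with voom (4.45%), and 0 to 4 with 1 library left out. At 4 h the 10 genes had 1 call with the length trend removed (1.26%) and 0 to 1 with 1 library left out. The 1 other ER gene called there became 0 with no filter, median centring, quantile normalization, limma without the trend, one fit, and voom (0.0% to 0.343%), and 0 to 4 with 1 library left out (0.0557% to 3.82%).

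At 7 h the median of -0.15 became 0.044 with median centring and lay between -0.35 and -0.0036 with 1 library left out, which gave 0 to 3 calls. Other ER genes had 4 calls with no filter (3.61%), 4 with 10 RPKM (18.6%), 2 with a pseudocount of 1 (4.65%), 10 with one fit (21.7%), 8 with voom (15.4%), and 0 to 12 with 1 library left out (0.0% to 27.4%). For the control over time the median of 0.13 lay between -0.025 (without 4 h replicate 1) and 0.23 with 1 library left out, with 0 to 1 calls. Other ER genes had 2 calls with 10 RPKM (5.48%), 1 each with median centring, quantile normalization, and the length trend removed (0.342%, 0.397%, and 2.14%), 4 with voom (4.15%), and 0 to 11 with 1 library left out (0.49% to 10.9%). For p38-MAPKi over time the median of -0.32 became -0.52 with 10 RPKM and -0.43 with median centring, one fit gave 1 call among the 10 genes and 4 among other ER genes (1.27%), and leaving out 1 library gave 0 to 6 and 1 to 37 (0.502% to 43.4%). The cause of these differences was not tested.

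Replicate numbers were also fitted as a block. Same-numbered libraries of different groups deviated together with correlations of -0.16 to 0.14 over 15 pairs of groups. The highest was that of control and p38-MAPKi at 10 h. Such correlations cannot show whether same-numbered pools were collected together, so whether the numbers pair the samples is not known. With the replicate block, calls among the 10 genes were 5 at 10 h (3.74%) and 4 for p38-MAPKi over time (16.6%), and those among other ER genes were 8 at 10 h, 9 at 7 h (18.5%), 0 at 4 h (0.696%; 4 at an unadjusted p under 0.05 in limma), 1 for the control over time (4.95%), and 10 for p38-MAPKi over time. Over single genes and all alternatives, 87 of 1310 log2 fold changes had the other sign, none of them of a gene called with or without the alternative. Leaving aside the 10 genes in the comparisons of p38-MAPKi with control, 68 values lost a call and 55 gained one. Depth limits Herpud1 most, with 92 to 399 reads a library.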
